A study of Mus musculus with 9 samples.

Results

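The genes described here are the immunoglobulin light chain genes named as Igkc, Iglc1, Iglc2, Iglc3, Iglv1 and Iglv2, picked from the table by symbol. Of these 6 genes, 4 were measured, out of 41128 genes counted in each tumor: Igkc, the constant gene of the kappa light chain, Iglc2, a constant gene of the lambda light chain, and Iglv1 and Iglv2, variable genes of lambda. Iglc1 and Iglc3 were not analysed here, so that every lambda constant value below is that of Iglc2 alone. All 4 measured genes passed the filter on low counts.

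RNA was sequenced from lymphomas of mice that carry the IµBcl6 allele, which keeps the germinal center repressor Bcl6 expressed in B cells, and the Cγ1-cre allele, which recombines target genes in B cells once the germinal center reaction begins. The 3 Bcl6 tumors were IµBcl6 Smc3 wt/wt, and the 6 Smc3/Bcl6 tumors were IµBcl6 Smc3 wt/-, with 1 allele lost of Smc3, a core subunit of the cohesin ring. Both groups therefore carry IµBcl6 and Cγ1-cre, and the comparison asks what loss of 1 Smc3 allele adds. Each tumor gave 1 library, of 10156728 to 17774577 counts, and replicate 1 of each group was labelled as mesenteric lymph node while the other tumors were labelled as lymph node. The study's text names mesenteric lymph nodes as the source for both genotypes, so the labels need not mean different sites. The labels do not say whether any tumors came from the same mouse, so p-values measure the spread between these tumors, and no age was given for each tumor.

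A B cell makes its antigen receptor and its antibody from a heavy chain and a light chain, and the light chain is either kappa or lambda. Kappa rearranges first and serves most mouse B cells, and a cell that keeps a working kappa gene as a rule makes no lambda, a rule called isotype exclusion. A single B cell clone therefore carries mostly 1 light chain, and the balance of kappa to lambda can shift where 1 clone takes over. Since most mouse B cells use kappa already, a kappa clone need shift this balance little. Each light chain RNA holds a variable (V) segment, a joining (J) segment and a constant (C) segment, so that V and C counts read separate exons of the same RNA. In the mouse lambda locus, Iglv1 usually joins Iglc1 or Iglc3, while Iglv2 and Iglv3 usually join Iglc2.

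On GRCm38, Igkc lies on chromosome 6 from 70726435 to 70726966 on the plus strand, as 1 exon of 532 bases. The lambda genes lie on the minus strand of chromosome 16, with Iglc2 from 19198396 to 19200351, Iglv1 from 19085017 to 19085500 and Iglv2 from 19260401 to 19260859. The first 120 coding bases of the constant exons, from the GENCODE M21 transcripts, show how closely the lambda constant genes resemble each other, which bears on which gene a read is assigned to. Capitals mark bases of Iglc3 and Iglc1 that differ from Iglc2 in a pairwise alignment, and Igkc and Iglc2 are given without capitals. On GRCm38 the stretches are chr6:70726435-70726554 (plus strand) for Igkc and, on the minus strand, chr16:19198734-19198853 for Iglc2, whose annotated coding part starts 1 base earlier, chr16:19065562-19065681 for Iglc3 and chr16:19061952-19062071 for Iglc1.
Igkc: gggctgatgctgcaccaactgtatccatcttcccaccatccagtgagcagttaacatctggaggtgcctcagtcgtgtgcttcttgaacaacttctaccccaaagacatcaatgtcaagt
Iglc2: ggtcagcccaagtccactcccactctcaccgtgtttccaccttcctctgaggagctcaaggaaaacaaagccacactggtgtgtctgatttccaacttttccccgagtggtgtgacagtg
Iglc3: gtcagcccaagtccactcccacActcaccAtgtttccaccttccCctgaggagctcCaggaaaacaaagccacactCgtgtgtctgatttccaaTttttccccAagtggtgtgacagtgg
Iglc1: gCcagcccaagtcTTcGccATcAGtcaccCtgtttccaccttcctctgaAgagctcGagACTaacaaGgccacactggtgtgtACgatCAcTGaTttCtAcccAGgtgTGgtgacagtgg

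Over the whole coding exon, Iglc2 and Iglc3 were identical at 303 of 314 aligned bases (96.5%), whereas Iglc2 and Iglc1 shared 73.2% and Iglc2 and Igkc 55.0%. The longest run of bases shared by the Iglc2 and Iglc3 transcripts was 79. Of all 50-base windows of the Iglc2 transcript, 43 of 409 also occurred in Iglc3 and 0 of 409 in Iglc1, and no window of 100 bases was shared with either. Iglv1 and Iglv2 were as close, with 296 of 305 bases of the V exon identical (97.0%) and a longest shared run of 104. In the first 120 bases of that exon, capitals mark the bases of Iglv2 (chr16:19260586-19260705, minus strand) that differ from Iglv1 (chr16:19085202-19085321, minus strand).
Iglv1: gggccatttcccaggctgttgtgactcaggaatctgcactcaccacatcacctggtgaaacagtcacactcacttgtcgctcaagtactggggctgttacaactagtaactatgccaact
Iglv2: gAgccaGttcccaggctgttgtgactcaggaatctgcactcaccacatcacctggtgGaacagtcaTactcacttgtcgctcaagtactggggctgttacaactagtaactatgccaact
These pairs can split or lose reads in counting, and the read length is not given in the sources used here. Counts of Iglc2, Iglv1 and Iglv2 are uncertain to that extent, while Igkc has no such near copy among the genes compared.

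Igkc was the most abundant light chain gene in every tumor. Levels are given as CPM, counts scaled to library size after TMM normalization, which corrects for the makeup of each library. Igkc reached 10380, 6017 and 2940 CPM in Bcl6 tumors 1, 2 and 3. The Smc3/Bcl6 tumors, in the order of their numbers, held 7062, 21700, 3512, 12710, 4705 and 5826 CPM of it. The highest value was in Smc3/Bcl6 tumor 2 and the lowest in Bcl6 tumor 3, and the groups overlapped. The group means were 6446 ± 3739 CPM (SD, n = 3) and 9252 ± 6886 CPM (SD, n = 6).

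Iglc2 varied less. It stood at 1299, 743 and 688 CPM in the Bcl6 tumors and at 1485, 3669, 593, 1311, 1218 and 853 CPM in Smc3/Bcl6 tumors 1 to 6, with means of 910 ± 338 (SD, n = 3) and 1521 ± 1101 CPM (SD, n = 6). Smc3/Bcl6 tumor 2 was again the highest, and the lowest of all was Smc3/Bcl6 tumor 3, below every Bcl6 tumor, so the groups overlapped. Across the 9 tumors Igkc and Iglc2 varied together, with Pearson's r = 0.871 and Spearman's rho = 0.867 on log2 CPM, given as a description of 9 libraries that share their scaling. In bulk RNA, fewer light chain-producing cells and less light chain RNA per cell cannot be told apart.

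**Figure D1:**
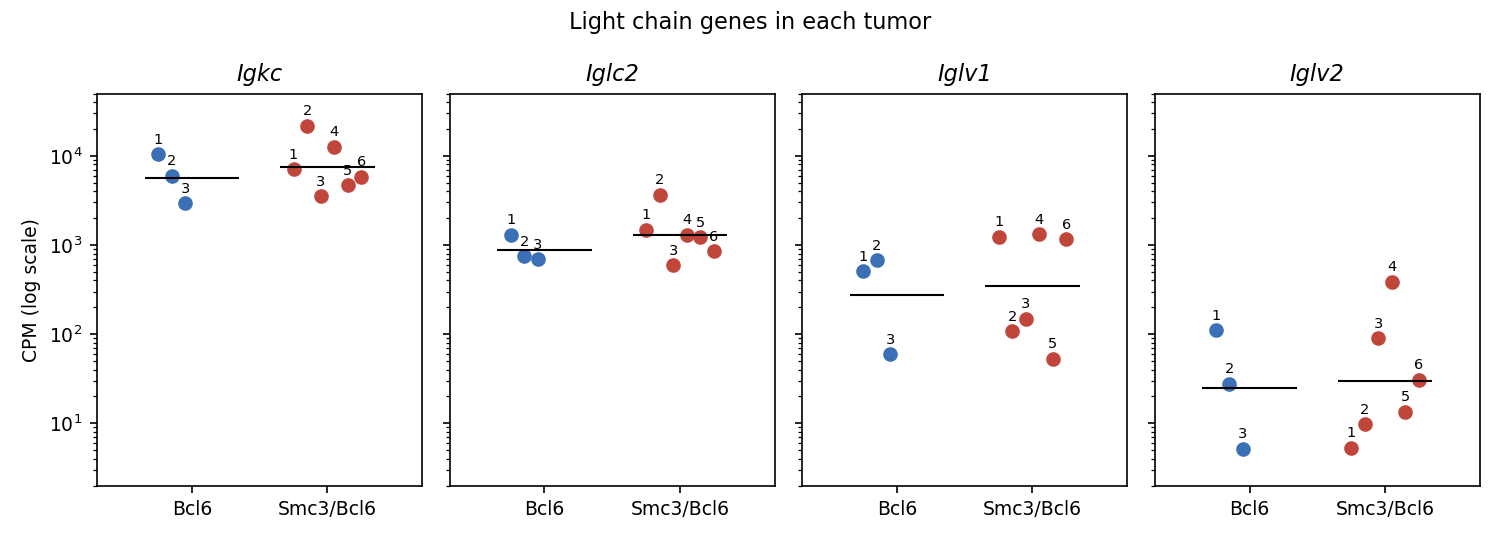
CPM on a log axis of Igkc, Iglc2, Iglv1 and Iglv2 in each tumor, with the tumor number above each point and a line at the mean of log2 CPM of each genotype. The constant genes spread 7.38-fold and 6.19-fold over the 9 tumors and the variable genes 24.7-fold and 74.4-fold, and the genotypes overlap for every gene.

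The lambda variable genes differed far more from tumor to tumor than the lambda constant gene. Across Bcl6 tumors 1 to 3 Iglv1 was at 504, 671 and 59.7 CPM, and it was at 1243, 107, 148, 1316, 53.2 and 1166 CPM in Smc3/Bcl6 tumors 1 to 6. The values fell widely apart within both genotypes, with 5 tumors at 504 to 1316 CPM, the other four at 53.2 to 148 CPM, and both genotypes in each range. Iglv2 was at 110, 27.8 and 5.20 CPM in the Bcl6 tumors, and at 5.34, 9.74, 90.7, 387, 13.5 and 31.0 CPM in the Smc3/Bcl6 tumors. Smc3/Bcl6 tumor 4 had the highest Iglv1 and the highest Iglv2, while Smc3/Bcl6 tumor 1 paired a high Iglv1 with nearly the lowest Iglv2. By the SD of log2 CPM over all 9 tumors, Iglv1 stood at percentile 95.7 and Iglv2 at percentile 97.2 of all genes tested, against 71.6 for Igkc and 63.5 for Iglc2.

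Per kilobase of exon levels could be set side by side across genes, within limits. The lengths are those of GENCODE M21, which is not the annotation used for counting. The 612 bases taken for Iglc2 include a separate exon of 154 bases that spans Iglj2. Iglc2, Iglv1 and Iglv2 can also lose or split reads, so the order among them is uncertain. Igkc was above each of the other genes in 9 of 9 tumors, a median of 6.82 times the level of Iglc2 and 15.1 times that of Iglv1. Iglc2 and Iglv1, the neighbours in this order, changed places: Iglc2 was higher per kilobase in 5 of 9 tumors, and Iglv1 in Bcl6 tumor 2 and Smc3/Bcl6 tumors 1, 4 and 6. Iglv1 was above Iglv2 in every tumor, by 1.53 to 218 times. Iglv3, the other lambda variable gene counted, was at 3.00 to 154 CPM and changed places with Iglv2, which was higher in 4 of 9 tumors.

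For none of the 4 genes did a difference between the genotypes pass the test. In edgeR's quasi-likelihood test over 14057 genes, a gene was called at an unadjusted p below 0.1 with a log2 fold change beyond 0.56 in either direction. By that rule 2.15% of all genes tested were called and 0 of the 4 light chain genes, and 0.484% of all genes but none of these 4 had groups that did not overlap. At an adjusted p below 0.05 no gene of the whole table passed, with 79 genes at an unadjusted p below 0.05, and DESeq2 and limma likewise called 0. The log2 fold change of Smc3/Bcl6 over Bcl6 was 0.52 for Igkc (SE 0.65), 0.74 for Iglc2 (SE 0.56), 0.71 for Iglv1 (SE 1.10) and 0.91 for Iglv2 (SE 1.39), each with an edgeR adjusted p of 1. All 4 estimates were above 0, as were 57.4% of all genes. The sizes leaned on single tumors. Without Smc3/Bcl6 tumor 2 Igkc was at 0.10 and Iglc2 at 0.29, and without Bcl6 tumor 3 Igkc was at 0.17 and Iglv1 at 0.19. Without Bcl6 tumor 1 Igkc was at 0.97, and without Bcl6 tumor 2 Iglv1 was at 1.30. Iglv2 changed sign without Smc3/Bcl6 tumor 4 (-0.59) and in tumors 1 to 3 of each group, which leave out Smc3/Bcl6 tumors 4 to 6, where it was -0.35 unpaired and -1.14 with same-numbered tumors as a block.

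The ratio of kappa to lambda counts within a library needs no depth scaling and was taken as a possible measure of light chain restriction. No lymph node without tumor was among the samples, and Iglc1 and Iglc3 were not analysed. The ratio therefore compares tumors with each other and does not say how far a clone has taken over. From the constant genes, Igkc over Iglc2, it was 7.99, 8.10 and 4.28 in Bcl6 tumors 1 to 3 and 4.76, 5.91, 5.93, 9.69, 3.86 and 6.83 in Smc3/Bcl6 tumors 1 to 6. Kappa exceeded Iglc2 in every tumor, and both the highest and the lowest ratio belonged to Smc3/Bcl6 tumors, with the Bcl6 tumors lying between them. The Iglc2 share of Igkc and Iglc2 counts ran from 9.35% (95% Wilson interval 9.23 to 9.48) in Smc3/Bcl6 tumor 4 to 20.6% (20.3 to 20.9) in Smc3/Bcl6 tumor 5. The differences among tumors were thus larger than counting error, which is all these intervals cover.

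The constant ratio did not separate the genotypes. Its mean was 6.79 ± 2.18 (SD, n = 3) in Bcl6 tumors and 6.16 ± 2.01 (SD, n = 6) in Smc3/Bcl6 tumors. On the log2 scale Smc3/Bcl6 minus Bcl6 was -0.14 (exact two-sided permutation test over 84 splits, p = 0.690, adjusted over 4 tests 0.921), with an interval from inverting the test of -1.04 to 0.66. The smallest p that this design can give is 0.0238. The direction turned without Bcl6 tumor 1 (0.0067) or Bcl6 tumor 2 (0.016), and among tumors labelled as lymph node alone (0.069).

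The variable genes gave a different picture of the same tumors. Counts summed over 105 kappa V genes (Igkv) and over Iglv1, Iglv2 and Iglv3 gave kappa to lambda ratios of 9.13, 4.66 and 24.8 in Bcl6 tumors 1 to 3, and of 3.86, 77.9, 7.71, 4.45, 52.6 and 3.50 in Smc3/Bcl6 tumors 1 to 6. This ratio spanned 22.2-fold over the 9 tumors, against 2.51-fold for the constant ratio. It was highest in Smc3/Bcl6 tumors 2 and 5 and Bcl6 tumor 3, and the genotypes overlapped. Lambda V counts made up 1.27% (1.21 to 1.33) of light chain V counts in Smc3/Bcl6 tumor 2 and 22.2% (21.9 to 22.5) in Smc3/Bcl6 tumor 6.

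**Figure D2:**
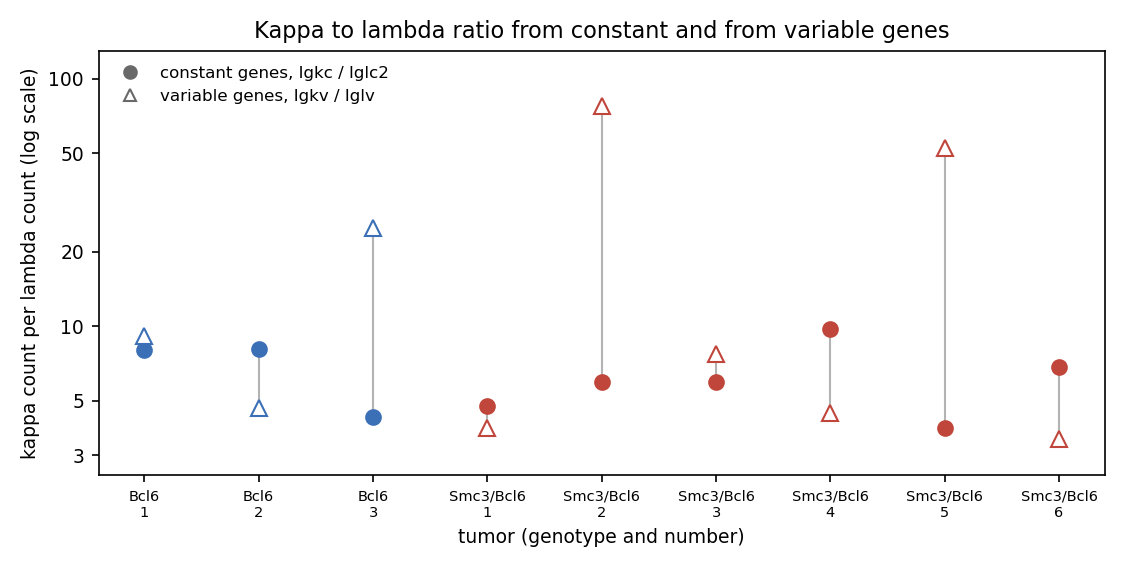
Kappa count per lambda count on a log axis in each tumor, from constant genes (filled circles) and from variable genes (open triangles), with blue for Bcl6 and red for Smc3/Bcl6 tumors. The circles stay between 3.86 and 9.69, while the triangles run from 3.50 to 77.9 and stand far above the circles in Bcl6 tumor 3 and Smc3/Bcl6 tumors 2 and 5.

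The variable ratio gave no difference between genotypes that passed the test either. The means were 12.9 ± 10.6 (SD, n = 3) and 25.0 ± 32.2 (SD, n = 6), and the log2 difference was 0.13 (exact permutation test, p = 0.952, adjusted 0.952) with an interval of -2.67 to 3.49. That interval leaves room for a difference of either sign several times larger than the one measured. The difference was -0.43 without Smc3/Bcl6 tumor 2, -0.32 without Smc3/Bcl6 tumor 5 and -0.44 without Bcl6 tumor 2. Across the 9 tumors the constant and variable ratios were not related in a way that passed the test (r = -0.557, permutation p = 0.121, adjusted over 6 relations 0.243, and rho = -0.483, permutation p = 0.194, adjusted 0.388, with r = -0.486 without the 2 tumors farthest from the median).

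Kappa V and C counts went together closely, while Iglc2 and lambda V counts did not. The 2 comparisons are unlike. Igkc is the constant gene of kappa, whereas Iglv1, which holds most lambda V counts, usually joins Iglc1 or Iglc3. Those 2 genes were not analysed here, so the difference cannot be read as a property of lambda. Igkc gave 1.28 to 1.77 counts per Igkv count in all 9 tumors, a range of 1.38-fold. Igkc and Igkv CPM were tightly related on the log2 scale (r = 0.985, permutation p = 1.93e-05, adjusted 0.000116, and rho = 0.950, permutation p = 0.000353, adjusted 0.00212). Without the 2 tumors farthest from the median r was 0.962. Both are parts of the same kappa RNA and share the scaling of their library, so a close relation was set in advance. Its p-values are therefore no finding about these tumors. Iglc2, in contrast, gave 1.86, 1.01 and 8.19 counts per Iglv count in Bcl6 tumors 1 to 3 and 1.15, 23.3, 2.08, 0.706, 17.5 and 0.679 in Smc3/Bcl6 tumors 1 to 6. Iglc2 and Iglv CPM were not detectably related (r = -0.0341, permutation p = 0.938, adjusted 0.938, and rho = 0.300, permutation p = 0.437, adjusted 0.524). Against Iglv2 and Iglv3 alone, the usual partners of Iglc2, there were 2.42 to 73.8 Iglc2 counts per V count. On log2 CPM Iglc2 had r = -0.172 with Iglv2 and 0.0732 with Iglv3, beside 0.871 with Igkc. How far Iglc2 counts measure lambda RNA in these tumors was not tested. The 3 tumors with the most Iglc2 per Iglv count were the 3 with the highest variable ratio, and both quantities hold the Iglv sum in the denominator.

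**Figure D3:**
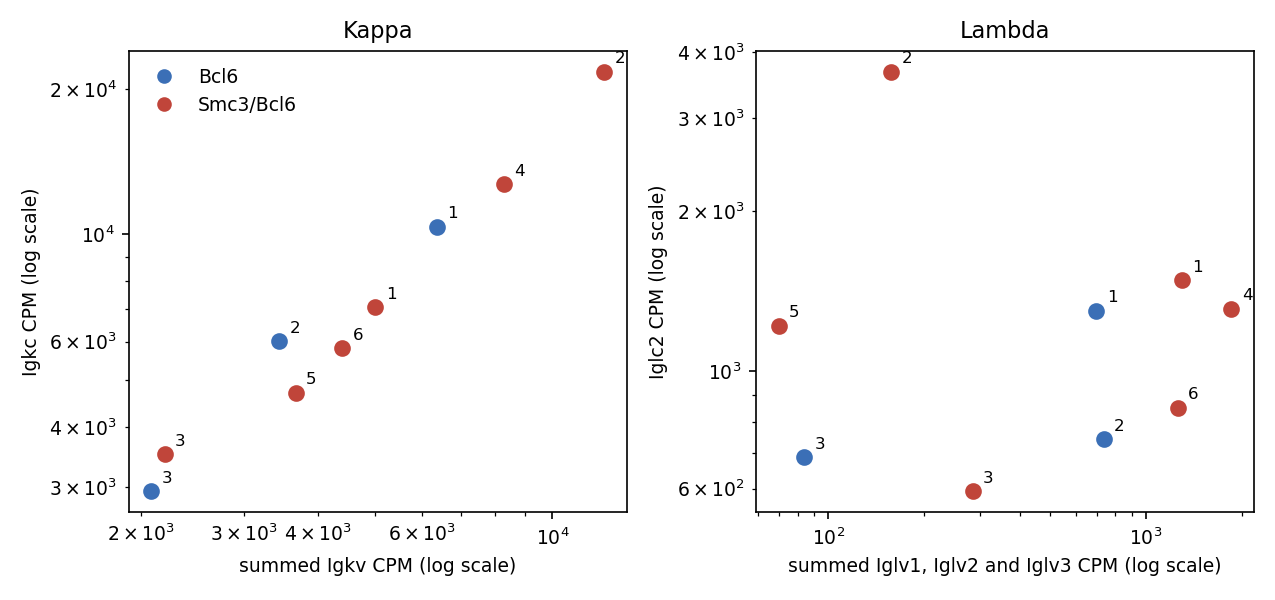
Igkc CPM against summed Igkv CPM, and Iglc2 CPM against summed Iglv1, Iglv2 and Iglv3 CPM, in each tumor. Both axes are log, with tumor numbers beside the points and colors for genotype. The kappa points follow 1 line (r = 0.985), while the Iglc2 points are scattered (r = -0.0341), with Smc3/Bcl6 tumor 2 at the top left. Iglc1 and Iglc3, the usual partners of Iglv1, were not analysed.

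Smc3/Bcl6 tumor 2 stood apart in a way that touches these values. Relative to the other tumors its short genes were high and its long genes low, with a Spearman correlation of the deviation with exon length of -0.466 against -0.0303 to 0.273 in the others, and light chain genes are short. Without it the relation of Igkc with Igkv had r = 0.976 and that of Iglc2 with Iglv r = 0.363. Smc3/Bcl6 tumor 5 and Bcl6 tumor 3, with length correlations of 0.101 and 0.169, had 17.5 and 8.19 Iglc2 counts per Iglv count. The part of exon length in the light chain values was not tested.

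The make-up of the V counts showed 1 leading kappa V gene in most tumors and Iglv1 next to it. Igkv3-4 led in Bcl6 tumors 1 and 2 and Smc3/Bcl6 tumor 3, with 77.5%, 72.1% and 68.4% of Igkv counts. Igkv5-39 led in Bcl6 tumor 3 and in Smc3/Bcl6 tumors 1, 5 and 6, with 91.6%, 87.9%, 98.2% and 61.4%. Igkv4-50 led in Smc3/Bcl6 tumor 2 with 62.8%, followed by Igkv4-57 with 34.0%, and Igkv6-15 led in Smc3/Bcl6 tumor 4 with only 25.3%. Igkv3-4 and Igkv5-39 thus each led in tumors of both genotypes, while Igkv4-50 and Igkv6-15 led in no Bcl6 tumor. Kappa V genes of near-identical sequence can share reads.

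Among all light chain V genes of a tumor, Iglv1 ranked second by count in 8 of 9 tumors and at rank 4 in Smc3/Bcl6 tumor 2. Iglv1 made up 19.7% of V counts in Smc3/Bcl6 tumor 1 and 20.6% in Smc3/Bcl6 tumor 6, where it had 0.282 and 0.432 counts per count of the leading kappa V gene. In Smc3/Bcl6 tumor 4 it reached 0.629 per count of the leading gene. In no tumor did a lambda V gene lead. In Smc3/Bcl6 tumor 1, with 87.9% of Igkv counts on 1 gene, the other kappa V genes together had 0.466 counts per lambda V count, and in Smc3/Bcl6 tumor 5 they had 0.946. In the other seven the remaining kappa V genes outnumbered lambda, by 1.30 to 29.0 counts per lambda V count.

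**Figure D4:**
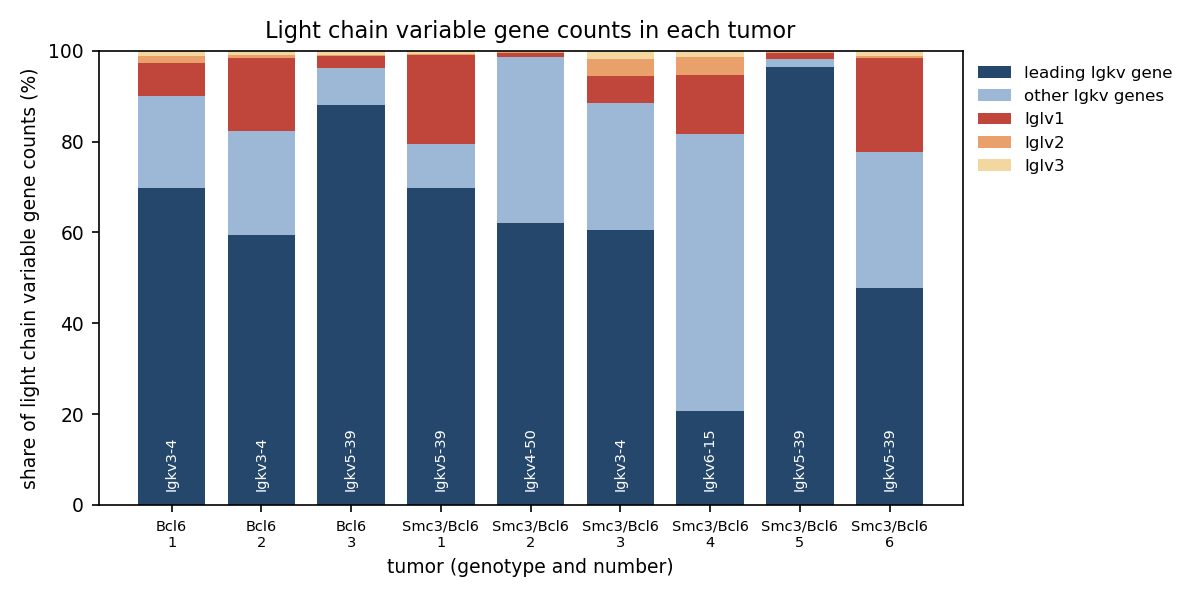
Percent of all light chain V counts in each tumor held by the leading Igkv gene (named in the bar), the other Igkv genes, Iglv1, Iglv2 and Iglv3. Iglv1 fills 0.865% of the bar in Smc3/Bcl6 tumor 2 and 20.6% in Smc3/Bcl6 tumor 6, and Smc3/Bcl6 tumor 4 is the tumor with the smallest leading gene, at 20.7%.

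Iglv1 supplied most lambda V counts in every tumor. Its share of Iglv1 and Iglv2 counts was 82.1%, 96.0% and 92.0% in the Bcl6 tumors and 99.6%, 91.7%, 62.1%, 77.3%, 79.8% and 97.4% in Smc3/Bcl6 tumors 1 to 6. The lowest and the highest shares were both in Smc3/Bcl6 tumors. The means of 90.0% ± 7.18 (SD, n = 3) and 84.6% ± 14.3 (SD, n = 6) differed by -5.40 percentage points (exact permutation test, p = 0.619, adjusted 0.921). Leaving out 1 tumor moved this from -9.38 (without Bcl6 tumor 1) to -0.884 (without Smc3/Bcl6 tumor 3), and it was -8.39 without Smc3/Bcl6 tumor 1 and -2.40 without Bcl6 tumor 2. The summed CPM of Igkc and Iglc2 did not separate the genotypes, at 7356 ± 4058 (SD, n = 3) and 10770 ± 7916 (SD, n = 6), a log2 difference of 0.43 (exact permutation test, p = 0.548, adjusted 0.921) with an interval of -0.97 to 1.93. That difference was 0.00066 without Bcl6 tumor 3, 0.13 without Smc3/Bcl6 tumor 2 and 0.84 without Bcl6 tumor 1. These 2 genes took 0.378% to 1.76% of all counts.

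The share of Igkv counts on the leading kappa V gene went with the constant ratio. Tumors with a more dominant kappa V gene had a lower ratio of Igkc to Iglc2 (r = -0.811, permutation p = 0.00495, adjusted over 6 relations 0.0148, and rho = -0.733, permutation p = 0.0311, adjusted 0.0934). Without Smc3/Bcl6 tumors 4 and 5, the 2 farthest from the median, r was -0.594, and the rank relation did not pass after adjustment. Within the 6 Smc3/Bcl6 tumors alone r was -0.988, and 3 Bcl6 tumors are too few for a value. With the variable ratio the same share had r = 0.377 (permutation p = 0.326, adjusted 0.489) and rho = 0.417 (permutation p = 0.270, adjusted 0.404), and r was -0.0546 without the 2 farthest tumors. Smc3/Bcl6 tumor 5, with 98.2% of Igkv counts on 1 gene, had the lowest constant ratio, 3.86. Smc3/Bcl6 tumor 4, with 25.3%, had the highest, 9.69. A measure of restriction to a kappa clone would run the other way, so the constant ratio is not shown to be one.

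Markers of other cells varied widely between tumors and are given beside the light chain values. The 8 B cell markers summed to 2754 to 8793 CPM in Bcl6 tumors and 4775 to 11420 CPM in Smc3/Bcl6 tumors, with every one of them detected in all tumors. The 7 plasma cell markers, from cells that secrete large amounts of light chain, summed to 1722 to 2114 CPM and to 884 to 5559 CPM, with Tnfrsf17 at 0 in 1 tumor. In Smc3/Bcl6 tumor 2, the tumor with the most Igkc and Iglc2, that sum was the highest of all, but Mzb1 alone gave 3381 CPM of it. Jchain, another gene of the list, was at 716 CPM there, within its range of 165 to 2924 CPM over all tumors. Short genes were high in this library, as described above. The mean log2 CPM of this list had no relation with the constant ratio that passed the test (r = 0.0449, permutation p = 0.907, adjusted 0.938, and rho = -0.150, permutation p = 0.708, adjusted 0.708, with r = 0.297 without the 2 tumors farthest from the median).

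The 7 T cell markers summed to 106 to 1744 CPM in Bcl6 tumors and 27.8 to 1768 CPM in Smc3/Bcl6 tumors, and none was at 0 in any tumor. In Bcl6 tumor 3 and Smc3/Bcl6 tumors 2, 3 and 5, which had the lowest Iglv1, the sums were 1417, 1768, 1634 and 571 CPM. In Smc3/Bcl6 tumors 1, 4 and 6, which had the highest Iglv1, they were 27.8, 87.6 and 68.4 CPM, and in Bcl6 tumors 1 and 2 they were 106 and 1744 CPM. This split by Iglv1 was not planned, and no relation with marker sums was tested. B cell marker sums were 2754, 5502, 4775 and 5911 CPM in Bcl6 tumor 3 and Smc3/Bcl6 tumors 2, 3 and 5. They were 6980, 11420 and 5836 CPM in Smc3/Bcl6 tumors 1, 4 and 6, and 8793 and 4575 CPM in Bcl6 tumors 1 and 2. The part of non-malignant cells, or of other B cells, in the light chain ratios was not tested. Of the 5 erythroid markers 2 were called higher in Smc3/Bcl6 tumors, with sums of 31.8 to 1129 CPM against 96.0 to 9433 CPM, and no gene of the other 7 marker lists was called.

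Genes around the light chains were followed through a list of 46, covering the rest of the loci, rearrangement enzymes, the surrogate light chain, receptor partners, transcription factors of the light chain enhancers and antibody assembly. Of these, 40 had a count and 35 passed the low-count filter, of which 1 was called higher and 0 lower, against 1.28% and 0.868% of all genes. The called gene was Igkj5, a kappa joining segment, with a log2 fold change of 2.38 (SE 1.28) and an edgeR adjusted p of 1. Its values were 32.9, 22.5 and 11.6 CPM in Bcl6 tumors and 21.4, 504, 12.5, 80.1, 69.0 and 11.1 CPM in Smc3/Bcl6 tumors. The groups overlapped, 1 value in Smc3/Bcl6 tumor 2 stood far above the rest, and the gene was called in 8 of 17 alternatives and not in 9. It was not called without that tumor (0.83), without Bcl6 tumor 1, 2 or 3, without Smc3/Bcl6 tumor 4 or 5, with the tissue label as a covariate or with limma and quality weights (0.08). In tumors 1 to 3 of each group it was called unpaired (2.95) but not with same-numbered tumors as a block (1.04), which left 0 genes of the list.

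The median log2 fold change of the 35 genes was 0.28, beside 0.06 over all genes tested, and 30 of 35 were above 0, against 57.4% of all genes. Many of the 35 are genes of B cells and can move together. Bcl6 tumor 3 had the lowest sum of B cell markers of all tumors, 2754 CPM. The part of B cell content in these fold changes was not tested. The 6 genes of the loci had a median of 0.62, the 7 of antibody assembly and secretion 0.78, the 3 receptor partners 0.45, the 13 factors 0.08 and the 5 rearrangement genes 0.01. The smallest p-values after Igkj5 belonged to Mzb1, a chaperone of antibody assembly (log2 fold change 1.33, SE 0.76), and Irf4, a factor that acts at the light chain enhancers (0.57, SE 0.39). Then came Fkbp11 of the secretory pathway (1.32, SE 1.01), Ighm, the constant gene of the µ heavy chain (1.01, SE 0.78), and Pdia4, a disulfide isomerase (0.57, SE 0.44), all with an edgeR adjusted p of 1. Rag1 and Rag2, which cut the loci for rearrangement, did not pass the filter and reached at most 0.209 and 0.162 CPM in any tumor. The surrogate light chain genes Igll1, Vpreb1 and Vpreb2 did not pass it either, with at most 1.60, 0.533 and 0.0666 CPM, while Vpreb3, the 1 tested gene of that list, was at 5.21 to 66.2 CPM with a log2 fold change of 0.28 (SE 0.76).

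**Figure D5:**
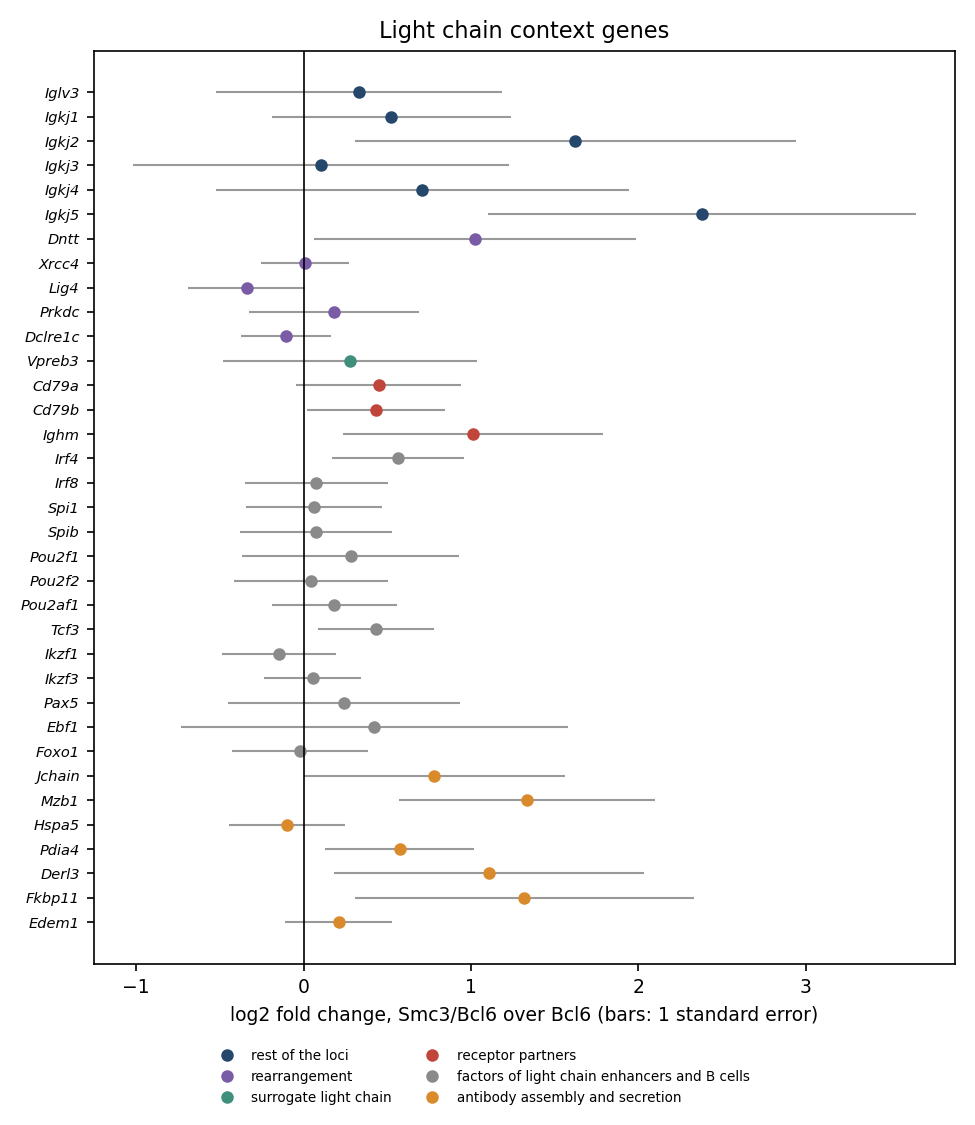
Log2 fold change of Smc3/Bcl6 over Bcl6 tumors with 1 standard error to each side, for the 35 tested genes around the light chains, colored by list. Most points lie right of 0, as do 57.4% of all genes tested. Igkj5, at 2.38, is the only one past the thresholds, and no adjusted p is below 0.05.

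Whole-gene counts of Smc3 were at 126, 99.5 and 88.1 CPM in Bcl6 tumors and at 107, 27.9, 105, 89.7, 111 and 108 CPM in Smc3/Bcl6 tumors 1 to 6. Only Smc3/Bcl6 tumor 2 lay below the Bcl6 tumors, the library whose long genes were low, with a median log2 deviation of -1.16 in the longest of 5 equal groups of genes by exon length. These counts sum all exons, so the alleles cannot be told apart in them and they do not check the genotype.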

How the data were processed

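RNA from 3 Bcl6 and 6 Smc3/Bcl6 lymphomas was sequenced after TruSeq preparation. The authors aligned reads with STAR through an nf-core pipeline, per the study's methods to mm10 with Gencode transcripts, and deposited 1 table of raw gene counts from featureCounts, not normalized. The labels' processing notes name R 4.0.2 and DESeq2 1.28.1. Whether counting used strand and the read length are not given in the sources used here. Positions, exon lengths and sequences came from GENCODE M21 on GRCm38, which holds 97.9% of the gene IDs but is not the annotation used for counting.

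Genes were tested with edgeR 4.0.16 (quasi-likelihood, TMM, filterByExpr, Benjamini-Hochberg) in R 4.3.3, for which the study used DESeq2, tried here (1.42.0) as an alternative with limma 3.58.1. Tests were checked on simulated data. Ratios and shares, 1 value per tumor, were compared by exact two-sided permutation over 84 splits, and relations by exact permutation of pairings. Counts were of 10156728 to 17774577 per tumor, and 95% Wilson intervals of shares were at most 5.41 percentage points wide for Iglv1 and 0.784 for the Iglc2 share. They cover counting error only, since no molecular identifiers are named.

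Groups came from the labels. Light chain genes and gene lists were chosen with earlier results of these data known. Named were all measured light chain genes and, of the surrounding genes, those past the thresholds and up to 5 others by smallest p, and, as genes of like pattern, the 5 with the strongest correlation. Deviations of same-numbered tumors of the 2 groups correlated at 0.443, 0.113 and 0.155, and those of Bcl6 tumor 2 and Smc3/Bcl6 tumor 3 at 0.356. The numbers come from the labels alone, and these values do not show that they pair tumors. The main tests used no pairing. A block of same-numbered tumors was an alternative, over tumors 1 to 3 of each group, since Smc3/Bcl6 tumors 4 to 6 have no Bcl6 tumor of the same number. Because Iglc1 and Iglc3 were not analysed here, the planned sum of 3 lambda constant genes was Iglc2, the planned Iglc1 share was left out, and the permutation tests formed a family of 4. The erythroid, neutrophil, macrophage, stroma, T cell, plasma cell, germinal center and B cell lists served as markers.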

Additional observations from a re-analysis of the deposited data

How the results depend on the processing

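Of 252 alternative values, 212 kept direction and side of the threshold (for counts, stayed within 1.5 times), 11 turned direction and 29 crossed a threshold or were counts that moved further. A kept count need not be of the same genes: the 1 gene called around the light chains was Irf4 with the tissue label as a covariate, Tcf3 without Smc3/Bcl6 tumor 2 and Mzb1 without Smc3/Bcl6 tumor 4. No light chain gene of the 4 was called under any of the 17 alternatives of the gene-wise test. The log2 difference of the constant ratio became 0.128 when variable genes replaced constant genes and 0.0694 among tumors labelled as lymph node, and ran from -0.445 to 0.0159 when 1 tumor was left out, turning without Bcl6 tumor 1 (0.00666) or 2 (0.0159). That of the variable ratio ran from -0.436 to 0.771, turning without Bcl6 tumor 2 (-0.436) and without Smc3/Bcl6 tumor 2 (-0.433) or 5 (-0.32). The log2 fold change of Iglv2 was -1.14 with the replicate block, -0.348 in the same 6 tumors unpaired and -0.585 without Smc3/Bcl6 tumor 4, the lowest of a range up to 2.4 (without Bcl6 tumor 1) when 1 tumor was left out. That of Fkbp11 was -0.0928 with limma and quality weights. The block also leaves out Smc3/Bcl6 tumors 4 to 6. It moved the median of all genes by -0.138, and the same 6 tumors unpaired by -0.0952. The block ended the call of Igkj5, the only call of the main fit among the light chain genes and those around them. In the same 6 tumors unpaired Igkj5, Derl3 and Mzb1 were called, and with the block none of them was. The block gave differences of -0.24 for the constant ratio, 0.38 for the variable ratio and 0.55 for the summed level, where the smallest possible p is 0.25. The cause of these turns was not tested. Called genes around the light chains numbered 1, but 2 with DESeq2, 4 with limma and quality weights, 2 without the filter, 0 with the replicate block, 3 in the same 6 tumors unpaired and 0 to 3 when 1 tumor was left out (2 without Bcl6 tumor 1, 3 without Smc3/Bcl6 tumor 3, 0 without Bcl6 tumor 2 or 3 or Smc3/Bcl6 tumor 5). Over all genes the calls numbered 302, against 443 with DESeq2, 1644 with limma and quality weights, 1388 without the filter, and 159 to 624 when 1 tumor was left out (159 without Smc3/Bcl6 tumor 6, 533 without Smc3/Bcl6 tumor 2, 624 without Smc3/Bcl6 tumor 3). Lambda values rest on Iglc2 and on near-identical V genes, and the Iglc1 share and the ratio to Iglc1 alone were not run. Alternatives on the variable ratio's tissue label and pseudocount, the unpaired fit of 6 tumors, and 3 of the 6 relations, were chosen after seeing the data.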

Other observations

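The genes whose level was most like that of Igkc over the 9 tumors, by Pearson correlation of log2 CPM among 13869 genes, were Hist1h1a (r = 0.980), Rpl23a (0.970), Acd (0.967), Snord49b (0.966) and Hist2h2ac (0.953). Of these, Acd was measured at 50.9 to 127 CPM, while Hist1h1a, Rpl23a and Snord49b stayed below 5.6 CPM in every tumor. For the log2 ratio of Igkc to Iglc2 they were Samd10 (0.956), Lix1l (-0.945), 3110002H16Rik (0.943), Slc15a3 (-0.939) and Gm15133 (0.934), with Samd10 at 24.7 to 45.3 CPM and Slc15a3 at 9.25 to 24.6 CPM. They were picked as the strongest among many genes over 9 tumors, so the values are descriptions with no test.

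The kappa joining segments were counted as separate short genes and gave a further view of the same tumors. In Smc3/Bcl6 tumor 2, Igkj5 had 4767 counts, while Igkj1, Igkj2, Igkj3 and Igkj4 had 132, 27, 0 and 7. In Smc3/Bcl6 tumor 4, Igkj2 had the most counts, with 2952, beside 1703 for Igkj1, 1203 for Igkj5, 1025 for Igkj4 and 209 for Igkj3. Smc3/Bcl6 tumor 2 was thus concentrated on 1 joining segment and had 2 kappa V genes, Igkv4-50 and Igkv4-57, with 96.8% of its Igkv counts between them, whereas Smc3/Bcl6 tumor 4 was spread over several segments and had only 25.3% of its Igkv counts on its leading V gene. Which V and J segments were joined in the same RNA cannot be read from gene counts.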
